A study of Arabidopsis thaliana with 32 samples.

Results

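The effect of removing the last CO2 was followed in leaves of Arabidopsis thaliana Col-0 during PSI photoinhibition (PSI-PI), by setting 4 leaves treated in air with 0 ppm CO2 against 4 leaves treated at 100 ppm CO2. These are 8 of the 32 samples of the series, taken by their labels, and every gene was compared: 21469 of 21525 listed genes were tested. All plants were wild type, were raised in 8 h days at a light intensity of 100 µmol photons m-2 s-1 and were 6 to 7 weeks old. Each cycle of the PSI-PI treatment combined 30 s in growth light with 3 rounds of 5 s in weak red light of 660 nm (at 35 µmol photons m-2 s-1), each with a 1 s pulse of white light at 1000 µmol photons m-2 s-1, and cycles were repeated for 3 h. The 0 and the 100 ppm leaves of this comparison shared that light treatment, so neither group is untreated. Leaves held in growth light (GL) for 3 h at 0 and at 100 ppm CO2, 4 of each, serve here as the same CO2 contrast without the light pulses, and leaves at 400 and 1000 ppm CO2 give further levels for some genes. The methods of the study describe 4 biological replicates, with RNA extracted from a leaf of the same position on the plant. Each replicate is counted here as 1 leaf. The labels do not say which leaves shared a run of the air-tight chamber, so run and CO2 level cannot be told apart.

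Rubisco fixes CO2 in the Calvin-Benson-Bassham (CBB) cycle, which is the main consumer of the ATP and NADPH that the photosynthetic electron transport chain delivers through PSI. Where CO2 is scarce, Rubisco takes O2 in its place and the photorespiratory pathway recycles the product through chloroplasts, peroxisomes and mitochondria. Chloroplasts whose electron sinks are closed are known to signal to the nucleus, and they are also the site where the precursors of jasmonic acid (JA) are made, a hormone that releases its target genes when JAZ repressor proteins are degraded. The comparison asks which nuclear genes respond when the remaining CO2 is withdrawn from leaves whose PSI is being damaged.

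Values are normalized counts as the authors deposited them, per leaf in the order of replicates 1 to 4, and are not scaled to gene length, so they are compared between leaves and not between genes. A gene is called differentially expressed (DEG) where the log2 fold change, 0 over 100 ppm, is at least 1 in size and the Benjamini-Hochberg adjusted p of limma over all tested genes is under 0.05. Errors of fold changes are standard errors (SE), with 4 leaves in each group. They rest on 1 spread per gene shared by all 8 groups of the series, and not on the spread of these 8 leaves alone. At 0 ppm, 764 genes were higher (3.56% of those tested) and 1344 were lower (6.26%) than at 100 ppm, and 41 of the rises and 53 of the falls were 8-fold or more. The 4 and the 4 leaves did not overlap for 583 of the rises and 1113 of the falls. Over all tested genes, 10.8% had every 0 ppm leaf above every 100 ppm leaf and 14.6% had every 0 ppm leaf below.

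The leaves differed in more than single genes. Normalized counts summed to 20556145 to 24408873 in 0 ppm leaves and to 27567647 to 31211055 in 100 ppm leaves, and the 10 genes with the highest counts held 7.50 to 9.21% of the sum at 0 ppm and 12.07 to 14.08% at 100 ppm. The estimated number of reads was alike, 20133783 to 23902494 against 20533589 to 24372664. When every sample was scaled to the same sum instead, the median log2 fold change of all genes moved to 0.36 and the calls turned to 2188 higher and 666 lower genes (76.7% higher, against 36.2% with the deposited scaling). Quantile normalization gave 831 and 1103 (43.0% higher). Directions below hold for the deposited scaling, which puts the median gene at 0. Counts under the other scalings are given for some lists only, and a list without them may depend on the scaling as well. Of the 205 genes chosen to be named, 32 lost their call under quantile normalization and 34 under the same-sum scaling. Leaves at 0 ppm also varied more, with a median SD of 0.387 on the log2 scale against 0.215 at 100 ppm. Replicate 1 at 0 ppm stood apart from the other 0 ppm leaves on the second principal component (77.7 against -58.1 to -29.0), and without it 699 genes were higher and 1247 lower, with 1582 of the 2108 original DEGs (75%) among them.

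**Figure D1:**
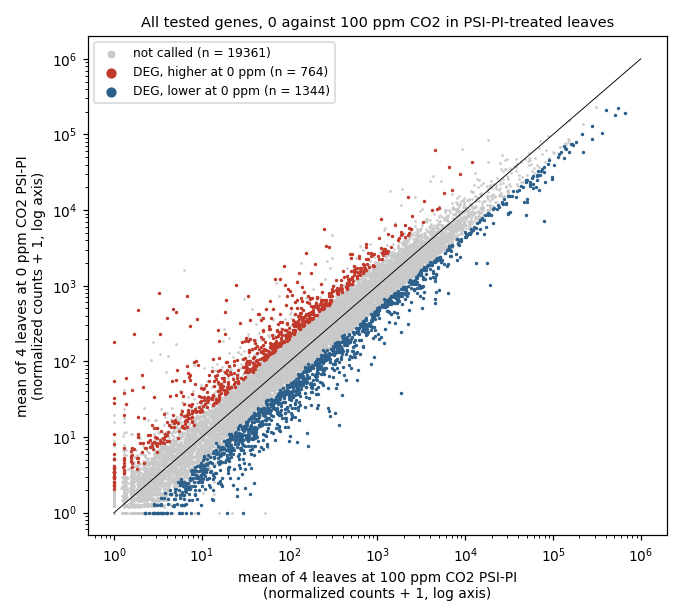
Mean normalized count plus 1 of each tested gene in 0 ppm CO2 PSI-PI leaves (vertical axis) and in 100 ppm CO2 PSI-PI leaves (horizontal axis), both on log axes, with 764 DEGs that were higher at 0 ppm in red, 1344 that were lower in blue and the line of equal values. Most genes with the highest counts lie below the line, and the red points spread over low and middle counts.

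The genes of the light-harvesting antenna were lower at 0 ppm than at 100 ppm CO2. LHCII binds most of the chlorophyll of PSII. The list called LHCII here holds 15 LHCB genes, among them those of minor antenna proteins such as LHCB4.3. Of the 15, 13 fell and none rose, with a median log2 fold change of -1.52 (the median of all tested genes was 0). Counts of the list summed to 540830 to 859580 in 0 ppm leaves and to 1918089 to 2471496 in 100 ppm leaves. Under PSI-PI the mean sum was 943531 at 400 ppm and 740320 at 1000 ppm, both below every 100 ppm leaf. The fall is thus relative to high values at 100 ppm. LHCB2.3 (AT3G27690) had 1587, 1365, 929.5 and 3997 normalized counts in 0 ppm leaves against 24108, 13534, 12701 and 20699 in 100 ppm leaves (log2 fold change -3.34 ± 0.55, adjusted p = 6.75e-05). Every 0 ppm leaf was below every 100 ppm leaf, and replicate 4 was the highest of its group, as it was for many photosynthesis genes. LHCB1.3 (AT1G29930) had 213500, 161670, 143350 and 240070 against 774550, 636250, 607990 and 615290 (log2 fold change -1.82 ± 0.36, adjusted p = 0.00035). LHCB1.4 (AT2G34430) fell most, with 2539.8 to 12935 counts at 0 ppm and 48346 to 140100 at 100 ppm (log2 fold change -3.59 ± 0.72, adjusted p = 0.00048). The LHCB1 and LHCB2 genes are near copies of each other and Salmon divides reads among them, so the share of each copy is uncertain. LHCB7 and LHCB4.3 were not called (-0.51 and -0.76). Under quantile normalization 6 LHCII genes were called lower, and 10 when samples were scaled to the same sum.

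Promoters are printed for the genes on which the account of light harvesting and of anthocyanins turns, as the 250 bases before the annotated start in TAIR10.1 (RefSeq). Capitals mark matches to CACGTG, the G-box that bHLH and bZIP light-signalling and MYC factors bind, and to CCAATC, which is the core bound by GLK factors, both searched on both strands. The LHCB2.3 promoter lies at chr3:10255656-10255905 on the plus strand and holds both:
LHCB2.3: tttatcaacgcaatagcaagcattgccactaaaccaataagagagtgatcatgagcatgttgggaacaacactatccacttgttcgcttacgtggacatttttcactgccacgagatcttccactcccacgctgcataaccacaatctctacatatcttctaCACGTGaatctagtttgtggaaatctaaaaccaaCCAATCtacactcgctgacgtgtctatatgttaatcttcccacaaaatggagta
Of the 15 LHCII promoters, 4 held a G-box and 7 held CCAATC, against 7.2% and 10.5% of the promoters of 21283 tested genes. Among the DEGs, the G-box stood in 9.5% of the promoters of genes that rose and 6.5% of those that fell. CCAATC stood in 8.8% and 10.6% of them, so its share among the falls was that of all tested genes. These are matches of letters in a window and were not tested for binding.

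Nuclear genes of both photosystems moved with the antenna. Of the LHCI genes, which feed PSI, 5 of 6 fell (median -1.21), and 8 of 12 PSI subunit genes fell (median -1.14), as did 4 of 10 PSII subunit genes (median -0.91). None of the genes in these groups rose. LHCI counts summed to 254469 to 400228 in 0 ppm leaves and 700711 to 800436 in 100 ppm leaves. PSI subunit counts summed to 297744 to 436295 and 712965 to 852097. At 400 and 1000 ppm under PSI-PI the mean sums were 367814 and 291712 for LHCI, and 447795 and 374949 for PSI subunits. These means were below every 100 ppm leaf, so the falls are relative to high values at 100 ppm. PSAG (AT1G55670), a PSI subunit that lies beside the antenna, had 15175, 18445, 17674 and 28004 counts in 0 ppm leaves against 62474, 62517, 49828 and 61803 in 100 ppm leaves (log2 fold change -1.61 ± 0.24, adjusted p = 2.48e-05), with no overlap. PSAF (AT1G31330), the docking subunit for plastocyanin, had 27917 to 57439 against 83653 to 120590 (log2 fold change -1.42 ± 0.25, adjusted p = 0.000148). Among PSII genes the largest fall was that of PSBTn (AT3G21055, log2 fold change -1.31 ± 0.23, adjusted p = 0.000128), followed by PSBQ1 (-1.25), PSBX (-1.16) and PSBO1 (-1.15), of which PSBQ1 and PSBO1 belong to the oxygen-evolving complex. On the acceptor side of PSI, the leaf ferredoxins FD2 and FD1 fell (-1.23 and -1.19), together with the NDH subunit gene PnsB3 (-1.19), and these 3 were the calls among 29 genes of the NDH complex, PGR5 and ferredoxins. Without replicate 4 of the 0 ppm leaves 8 of the 29 were called lower. Under the same-sum scaling no LHCI, PSII or NDH gene and 2 PSI genes were called lower, and under quantile normalization 1 LHCI and 1 PSI gene and no PSII or NDH gene were called lower.

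**Figure D2:**
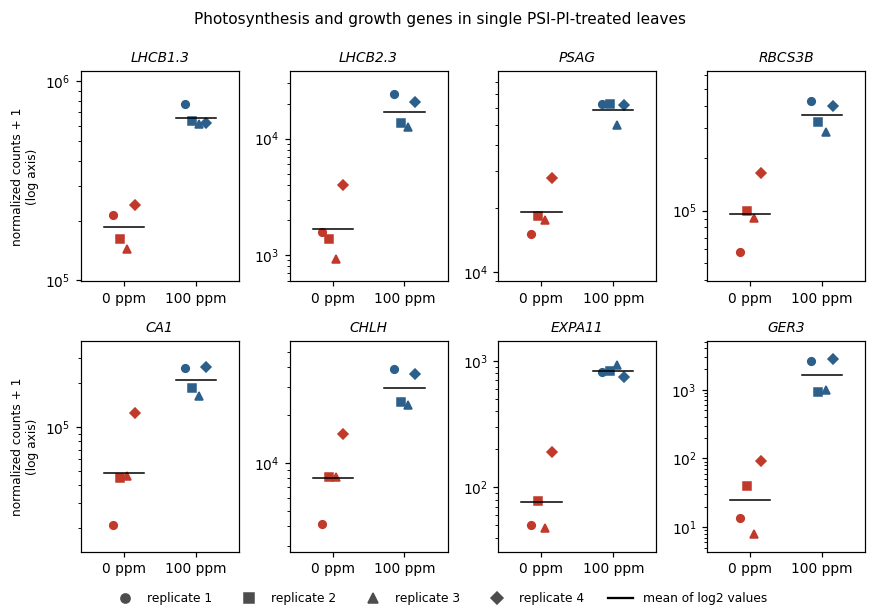
Normalized counts plus 1 (log axis) of 8 photosynthesis and growth genes in each PSI-PI-treated leaf, with 0 ppm CO2 in red on the left and 100 ppm CO2 in blue on the right of each panel; symbols stand for replicates and lines for the mean of the log2 values. The 4 red points lie below the 4 blue points in every panel, and replicate 4 is the highest 0 ppm leaf in each.

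Genes for carbon fixation fell less evenly. Of the 20 CBB cycle genes 8 fell and none rose (median -0.89). RBCS3B (AT5G38410), a Rubisco small subunit gene, had 57721, 99200, 90713 and 164160 counts at 0 ppm against 428260, 324890, 282000 and 396900 at 100 ppm (log2 fold change -1.88 ± 0.35, adjusted p = 0.000199), and replicate 4 was the 0 ppm leaf nearest to the 100 ppm leaves. The other small subunit genes called were RBCS2B (-1.80) and RBCS1A (-1.35, but 0.048 under quantile normalization), which are near copies as well. The remaining calls were TKL1, GAPA, SBPASE and PRK, with log2 fold changes of -1.11 to -1.01, and RCA, the activase of Rubisco (-1.02, but 0.168 under quantile normalization). Of the 8, 4 were called without replicate 1 at 0 ppm and 5 without replicate 1 at 100 ppm. None was called under quantile normalization and 2 were called under the same-sum scaling.

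Most photorespiration genes moved in the same direction as the CBB genes. Of 25 genes 9 fell and none rose (median -0.86), and without replicate 1 at 0 ppm the number was 4. At adjusted p under 0.05 and no minimum fold change, 20 were lower and 3 higher. The largest falls were those of the envelope carriers DiT1 (AT5G12860), 868 to 2800.5 counts at 0 ppm against 3610.1 to 5845 at 100 ppm (log2 fold change -1.55 ± 0.34, adjusted p = 0.00102), and DiT2.1 (AT5G64290), 767 to 2371 against 3053 to 5459 (log2 fold change -1.52 ± 0.29, adjusted p = 0.000268), which exchange dicarboxylates during reassimilation of photorespiratory ammonium. Glutamine synthetase GS2 fell by less (-1.15) and so did the glycine decarboxylase genes GLDP2 and GLDP1 (-1.36 and -1.09). Quantile normalization and the same-sum scaling called 2 each.

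Carbonic anhydrases, which interconvert CO2 and bicarbonate, gave 3 of the 4 falls in a list of 16 genes with stomatal CO2 signalling. CA1 (AT3G01500) had 20966, 44884, 46084 and 124370 counts at 0 ppm against 257450, 186880, 164710 and 257460 at 100 ppm (log2 fold change -2.14 ± 0.44, adjusted p = 0.00063), so replicate 1 had the lowest and replicate 4 the highest value of the 0 ppm leaves. CA2 and CA4 followed with -1.53 and -1.03 (the CA4 call was lost in 3 of the 8 fits that leave out a leaf), and GHR1, a receptor kinase of guard cells, with -1.74, and 2 of the 4 were called under quantile normalization. In the synthesis of chlorophyll and heme 6 of 22 genes fell and none rose (median -0.50). CHLH (AT5G13630), a subunit of magnesium chelatase, had 4125, 8137, 8166 and 15139 against 38850, 24144, 22991 and 36017 (log2 fold change -1.89 ± 0.34, adjusted p = 0.000141). Its activator GUN4 (-1.48), the cyclase CRD1 (-1.41), the entry enzyme HEMA1 (-1.31), the reductase DVR (-1.24) and CAO, which makes chlorophyll b (-1.06), completed the group, of which 3 were called under the same-sum scaling. The photoprotective PSBS (-1.08) was the single call among 9 relatives of the antenna with roles in light stress, and it was not called without replicate 3 at 0 ppm.

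Storage carbohydrate genes showed few calls. None of 17 starch synthesis and none of 18 starch degradation genes was called by limma (at adjusted p under 0.05 and no minimum fold change, 8 starch synthesis genes were lower, and 3 degradation genes were higher and 1 lower). Of 16 sucrose synthesis genes, SUS6 (-1.51), SUS5 (-1.49) and the aldolase FBA5 (-1.11, call lost without either replicate 1) fell. Among 22 markers of carbon starvation, BCAT2 (AT1G10070), a branched-chain amino acid transaminase, rose, with 1576, 1104, 1348 and 470.2 counts at 0 ppm against 75.4, 109, 208 and 93.5 at 100 ppm (log2 fold change 3.18 ± 0.67, adjusted p = 0.000687) and no overlap. EXL1 fell (-2.28), and its call was lost in 3 of the 8 fits that leave out a leaf. Of 18 heat shock genes none was called, and without the fold threshold 1 was lower.

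Genes of cell expansion and of auxin response were lower at 0 ppm. Expansins loosen cell walls in growing tissue, and 6 of 10 alpha-expansin genes fell while none rose (median -1.68). EXPA11 (AT1G20190) had 49.1, 76.9, 47 and 189 counts in 0 ppm leaves against 821, 838, 921 and 751 in 100 ppm leaves (log2 fold change -3.43 ± 0.60, adjusted p = 0.000115), and EXPA8 (AT2G40610) had 29.8, 360.3, 359.8 and 1129 against 2001, 2417, 2613 and 2214 (log2 fold change -3.15 ± 0.85, adjusted p = 0.00577). Both had their highest 0 ppm value in replicate 4, still below the 100 ppm leaves. Of 18 early auxin response genes 4 fell, all of the AUX/IAA repressor family (IAA6 -2.55, IAA14 -1.63, IAA19 -1.49, IAA3 -1.26, the last not called without replicate 3 at 0 ppm), with a median of -0.52. Among 13 genes of nitrate reduction and response the transcription factor LBD39 (-2.45), asparagine synthetase ASN2 (-1.91), nitrite reductase NIR1 (-1.66) and nitrate reductase NIA2 (-1.33, call lost without replicate 1 at 0 ppm) fell and none rose.

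The 12 largest falls, taken among DEGs whose 4 and 4 leaves did not overlap, were of genes outside the photosynthesis lists. GER3 (AT5G20630), a germin-like protein of the cell wall, had 12.7, 39.3, 6.91 and 90 counts at 0 ppm against 2636, 919, 1005 and 2825 at 100 ppm (log2 fold change -6.01 ± 1.22, adjusted p = 0.000488). AT2G10940, of the lipid-transfer protein superfamily, had 198, 654, 152 and 3058 against 34512, 15568, 8325 and 18308 (log2 fold change -5.09 ± 1.00, adjusted p = 0.000368). In both, replicate 4 was the highest 0 ppm leaf. The pectin lyase-like AT1G60590 (-4.71), the xyloglucan-modifying XTH25 (-4.38), the extensin family member AT5G15780 (-4.25) and the arabinogalactan peptide AGP22 (-4.16) followed, with the calmodulin-like CML30 (-4.94, call lost without replicate 2 or replicate 3 at 0 ppm), AT3G23510 of the cyclopropane fatty acid synthase family (-4.71), the thioredoxin-like AT4G15680 (-4.42) and AT5G01015 (-4.14). The peptide hormone genes RALFL32 and RGF6 were at 0 in all 0 ppm leaves, and against a floor of 3 counts per leaf they were at least 9.52-fold and 6.19-fold lower than at 100 ppm. Under PSI-PI their means at 400 and 1000 ppm were also near 0 (0 and 0.22 for RALFL32, 0.30 and 0 for RGF6), so the 100 ppm leaves stood out. GER3 and AT2G10940 instead had means of 1897 and 20479 at 400 ppm, near their 100 ppm level. At 1000 ppm their means were lower, 151 and 7691.5.

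Genes of the anthocyanin branch were higher at 0 ppm, but the size of the rise differed widely among the 4 leaves. MYB90 (AT1G66390), an R2R3-MYB activator of anthocyanin synthesis, had 1269.5, 420.4, 167 and 41.3 counts in 0 ppm leaves against 0, 0, 3.4 and 0 in 100 ppm leaves (log2 fold change 7.42 ± 1.24, adjusted p = 7.18e-05). Replicate 1 was the highest and replicate 4 the lowest of the 0 ppm leaves. DFR (AT5G42800), the first enzyme committed to anthocyanins, had 2797, 332, 48 and 2.06 against 3.04, 0, 2.28 and 3.54 (log2 fold change 5.29 ± 1.62, adjusted p = 0.0138), so replicate 4 lay within the range of the 100 ppm leaves. LDOX, the enzyme after DFR, had 8.32 to 1717 against 3.11 to 4.65 (log2 fold change 4.49 ± 1.19, adjusted p = 0.00485), and GSTF12, which is needed to bring anthocyanins into the vacuole, had 30 to 2619.9 against 2.34 to 10.6 (log2 fold change 4.85 ± 1.41, adjusted p = 0.0097). Of 23 listed regulators 10 rose and 1 fell, and of 22 enzymes 5 rose and 3 fell. Without replicate 1 at 0 ppm these rises numbered 7 and 1, and the calls of DFR (adjusted p = 0.077), GSTF12 (0.054), UF3GT and MYB75 were among those lost (UF3GT and MYB75 lost theirs in 6 and 5 of the 8 fits that leave out a leaf), while MYB90, MYB113, MYB114 and LDOX kept theirs. The study drew up these lists on the same samples, so their direction is not independent evidence.

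The promoters of MYB90 (chr1:24763691-24763940, plus strand) and DFR (chr5:17166033-17166282, minus strand) each held 1 G-box, and that of MYB90 also CCAATC, all in capitals. A G-box stood in 5 of 23 regulators and 6 of 22 enzymes of the lists, and CCAATC in 3 and 4 of them:
MYB90: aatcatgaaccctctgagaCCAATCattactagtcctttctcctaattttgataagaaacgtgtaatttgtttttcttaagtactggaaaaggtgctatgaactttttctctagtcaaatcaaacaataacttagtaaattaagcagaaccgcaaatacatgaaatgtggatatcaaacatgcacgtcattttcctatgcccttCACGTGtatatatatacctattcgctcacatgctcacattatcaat
DFR: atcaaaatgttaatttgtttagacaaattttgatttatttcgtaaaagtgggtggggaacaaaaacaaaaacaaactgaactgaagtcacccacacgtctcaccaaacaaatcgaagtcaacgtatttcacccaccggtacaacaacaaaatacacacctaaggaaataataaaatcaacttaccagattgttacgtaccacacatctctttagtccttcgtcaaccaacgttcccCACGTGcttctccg
The falls in the list were at other steps of the pathway. PAL2 (AT3G53260) and PAL1, which open phenylpropanoid synthesis, fell (-1.64 and -1.39), as did FLS1 (AT5G08640), the flavonol synthase (-1.54). PAL2 had 823, 842, 946 and 1299.9 counts at 0 ppm against 3836, 2562, 2399.9 and 3401 at 100 ppm, and FLS1 had 25.2 to 58.8 against 90.4 to 133, without overlap in either. Chalcone synthase, CHS (AT5G13930), had 3620.1, 472, 137 and 65.9 against 44.1, 70.7, 56 and 104 and was not called (log2 fold change 2.42 ± 1.09, adjusted p = 0.0891).

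Jasmonate genes showed the same order of leaves. Of 68 JA-responsive genes 17 rose and none fell, and 63 had a positive fold change (median 1.16). The counts of the list summed to 1417667, 203398, 159699 and 145389 in 0 ppm leaves against 136774, 97606, 110836 and 109382 in 100 ppm leaves. The median log2 difference of its genes from the 100 ppm mean was 2.94, 0.86, 0.52 and 0.22 in the 4 leaves at 0 ppm, so it was above 0 in each and by far the highest in replicate 1. Without that leaf 12 genes of the list rose, and 33 did under the same-sum scaling. Under PSI-PI the mean sum of the list was 126548 at 400 ppm and 215198 at 1000 ppm. The mean at 1000 ppm was above the sums of 0 ppm replicates 2, 3 and 4. JAZ1 (AT1G19180), a repressor of JA targets and itself JA-induced, had 1793, 737, 634 and 405 counts at 0 ppm against 104, 76.5, 119.9 and 75.3 at 100 ppm (log2 fold change 3.04 ± 0.57, adjusted p = 0.000216). JAZ8 and JAZ6 rose as well (2.70 and 1.31), 3 of 13 JAZ genes in all, and the 3 remained called without replicate 1.

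Of 13 JA synthesis genes 4 rose, all of them for the plastid steps after lipoxygenase, and none fell. Counts of this list summed to 492689, 104284, 74106 and 75806 in 0 ppm leaves, with PSI-PI means of 61295 at 400 ppm and 103536 at 1000 ppm. AOC1 (AT3G25760), an allene oxide cyclase, had 41174, 8274, 5907 and 4844 counts at 0 ppm against 2493, 1754, 2681 and 1991 at 100 ppm (log2 fold change 2.18 ± 0.60, adjusted p = 0.00697). AOC2 and AOC3 had 1.42 and 1.25, and the AOC genes are near copies among which reads are divided. The allene oxide synthase AOS had 12597 to 74899 counts against 7751 to 9966 (adjusted p = 0.042, and 0.0523 in the fit with a replicate block). All 3 calls were lost without replicate 1 at 0 ppm, and over the 8 fits that leave out a leaf AOC2 lost its call in 1, AOC3 in 3 and AOS in 6. LOX2, the chloroplast lipoxygenase, had 242180, 38692, 27129 and 27837 against 25360, 12976, 16685 and 17324 and missed the threshold (log2 fold change 1.55 ± 0.71, adjusted p = 0.094) although its leaves did not overlap. The genes that respond to the JA precursor OPDA gave 9 rises and no fall among 62 (median 0.59), and 3 without replicate 1. Under the same-sum scaling 8 JA synthesis, 5 JAZ and 15 OPDA-responsive genes were called higher. AT5G05600, which encodes a 2-oxoglutarate-dependent oxygenase that inactivates JA, had 762 to 9556 against 181 to 402 (log2 fold change 2.82 ± 0.72, adjusted p = 0.00374).

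In several of the largest rises 0 ppm replicate 1 also had the highest value. AT4G35160, AT2G22880 and MYB113 were at 0 in all 100 ppm leaves. The O-methyltransferase AT4G35160 had 671, 39, 6.85 and 4.12 counts at 0 ppm, by the mean at least 60.1-fold higher against a floor of 3 counts per leaf, and at least 5.55-fold without replicate 1. MYB113 had 86.1, 7.22, 12.9 and 3.1 (at least 9.12-fold, and 2.58-fold without replicate 1), and the VQ motif protein AT2G22880 had 164, 20.6, 21.1 and 8.17. RAP2.6, an ERF transcription factor, had 1339, 56.8, 84.5 and 15.5 against 6.1, 3.51, 0 and 2.35 (log2 fold change 4.99 ± 1.27, adjusted p = 0.00371), TPS04, which makes a volatile terpene precursor, had 37 to 900.3 against 1.18 to 9.12 (log2 fold change 4.44 ± 1.15, adjusted p = 0.00427), and AT1G54020 of the GDSL lipase family had 15.2 to 1684 against 1.61 to 7.47 (log2 fold change 4.34 ± 1.27, adjusted p = 0.01). Leaving out that leaf ended the call of AT1G54020 (adjusted p = 0.062).

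**Figure D3:**
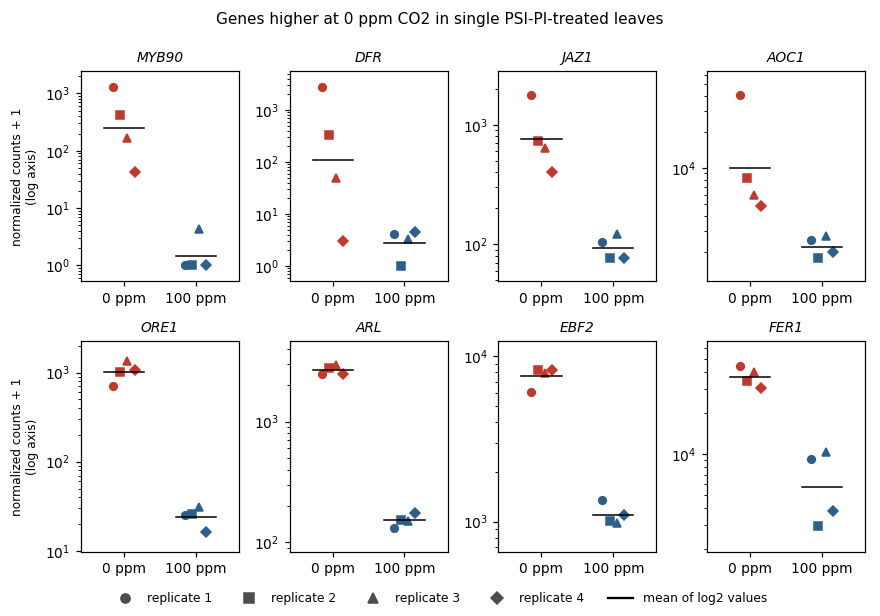
Normalized counts plus 1 (log axis) of 8 genes that rose, in each PSI-PI-treated leaf, with 0 ppm CO2 in red on the left and 100 ppm CO2 in blue on the right of each panel; symbols stand for replicates and lines for the mean of the log2 values. MYB90, DFR, JAZ1 and AOC1 fan out at 0 ppm with replicate 1 on top, while ARL, EBF2, ORE1 and FER1 lie close together in the 4 leaves at 0 ppm.

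Other rises were of nearly the same size in all 4 leaves at 0 ppm, among them several of ethylene perception and response. The ethylene lists were made after the values of these genes had been seen, and are given as a description. Ethylene receptors repress the pathway through the kinase CTR1 until ethylene binds, EIN3 is then stabilized and switches on its targets, and the F-box proteins EBF1 and EBF2 remove EIN3. EBF2 (AT5G25350) had 6057, 8253, 7864 and 8280.4 counts in 0 ppm leaves against 1342, 1012, 976 and 1096 in 100 ppm leaves (log2 fold change 2.78 ± 0.17, adjusted p = 4.04e-12). ARL (AT2G44080), an ARGOS-like gene of organ growth that ethylene induces, had 2474, 2774, 2953 and 2487 against 129, 151, 149 and 174 (log2 fold change 4.14 ± 0.22, adjusted p = 3.58e-13). The groups did not overlap, which for ARL was a condition of its choice, and the 4 leaves at 0 ppm lay close together. Of 5 receptor genes, ERS1 (1.54), ERS2 (2.01) and ETR2 (2.43) rose, while ETR1 (-0.16) and EIN4 (-0.33) were not called. Of 17 genes of signalling and response 8 rose: EBF2, ARL, ARGOS (2.78), CTR1 (1.49), the transcription factor ERF1 (3.17) and the RAV-type EDF1, EDF2 and EDF3 (1.90, 1.63 and 1.73). EIN2 (-0.30), EIN3 (-0.02) and EBF1 (0.37) were not called. Of 13 synthesis genes, ACS6 (1.02) and the ACC oxidase EFE (1.34) rose and ACS1, ACS4 and ACS11 fell (-2.15, -3.44 and -3.51), and ACS6 and EFE lost their calls in 3 and 1 of the 8 fits that leave out a leaf.

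Some NAC transcription factors of leaf senescence rose as well. ORE1 (AT5G39610) had 701, 1012, 1342 and 1081 counts at 0 ppm against 24.4, 24.7, 29.6 and 15.3 at 100 ppm (log2 fold change 5.40 ± 0.43, adjusted p = 2.78e-09). NAP (AT1G69490), named after its values were seen, had 1829.8, 1876, 2487 and 1619 against 277, 129, 187 and 173 (log2 fold change 3.38 ± 0.32, adjusted p = 4.81e-08). For both, every 0 ppm leaf was far above every 100 ppm leaf, though ORE1 was chosen among genes without overlap. Other senescence markers were not called: SAG13 had 0.90, the chlorophyll degradation gene NYE1 0.40 and SAG29 -0.06. Of 19 rapid stress transcription factors 8 rose and none fell (median 1.17). WRKY40 (AT1G80840) had 648, 322, 448 and 262 against 70.1, 70.5, 94.6 and 68.4 (log2 fold change 2.38 ± 0.46, adjusted p = 0.000306), WRKY53 had 1481 to 2208 against 542 to 892 (log2 fold change 1.49 ± 0.18, adjusted p = 1.69e-06) and ERF5 had 395 to 582 against 166 to 196 (log2 fold change 1.37 ± 0.23, adjusted p = 6e-05). In the ABA list of 16, the phosphatase ABI1, which damps ABA signalling, rose, with 2481 to 4441 counts at 0 ppm against 1129 to 1282 at 100 ppm (adjusted p = 1.89e-07), as did CYP707A1, which degrades ABA (log2 fold change 1.76 ± 0.64, adjusted p = 0.036, call lost in 4 of the 8 fits that leave out a leaf).

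**Figure D4:**
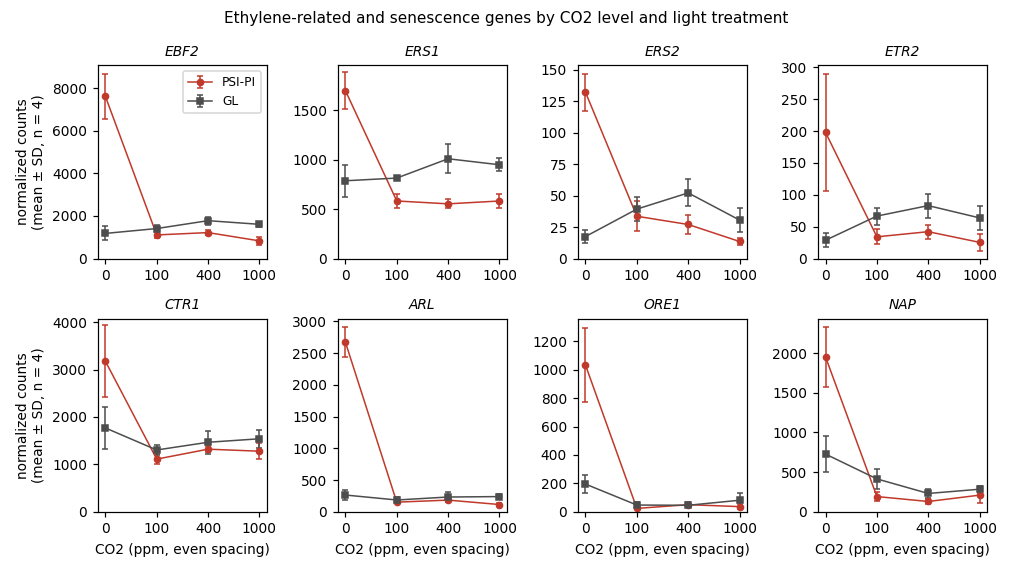
Mean ± SD (n = 4 leaves) of the normalized counts of 8 ethylene-related and senescence genes at 0, 100, 400 and 1000 ppm CO2 (evenly spaced), for PSI-PI (red circles) and GL (grey squares), on linear axes from 0. The PSI-PI leaves at 0 ppm are above all other groups in each panel, and the PSI-PI means at 100, 400 and 1000 ppm are all below it.

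Calls among genes of iron handling and of reactive oxygen went in both directions. Of all tested genes 3.56% were higher and 6.26% lower. The calls of the iron deficiency list and the falls of the singlet oxygen and H2O2 lists were near or below those shares. FER1 (AT5G01600), the main leaf ferritin that stores iron in plastids, had 43738, 34358, 39880 and 30291 counts at 0 ppm against 9214, 2923, 10230 and 3823 at 100 ppm (log2 fold change 2.69 ± 0.54, adjusted p = 0.000484), and FER3 had 1900.1 to 2712 against 493 to 1068 (log2 fold change 1.59 ± 0.43, adjusted p = 0.00558), both without overlap. The ferric reductase FRO6 (-1.26) and the iron-sulfur protein NEET (-1.17) fell, and both calls were lost without replicate 1 at 100 ppm, that of FRO6 also without replicate 1 and that of NEET without replicate 3 at 0 ppm. Of 17 iron deficiency genes PYE rose (1.02) and OPT3 and AT3G56360 fell (-1.04 and -1.36), and the calls of PYE and OPT3 were lost in 3 and 2 of the 8 fits that leave out a leaf. The study chose the iron lists on these samples. The chloroplast iron superoxide dismutase FSD1 fell (log2 fold change -1.62 ± 0.31, adjusted p = 0.000333), the single call among 8 dismutase genes and their chaperone. Of 49 singlet oxygen-responsive genes 9 rose and 1 fell, with TPS04 and the methionine sulfoxide reductases MSRB7 and MSRB9 the largest rises (3.34 and 2.52, neither called without replicate 1 at 0 ppm, and MSRB7 lost its call in 6 of the 8 fits that leave out a leaf). Of 40 H2O2-responsive genes ORE1, FER1, NAC3 (2.59), SAG21 (2.02) and WRKY53 rose and BT2 (-2.17) and BT5 (-1.24) fell.

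Light signalling genes were called in both directions, and few clock genes were. The counts of the clock and phosphate lists were near the shares of all tested genes, 3.56% higher and 6.26% lower. Of 14 light signalling genes, which the study picked from these samples, PIL2 of the PIF-like family (2.26) and RPGE1 (1.56, call lost without replicate 4 at 100 ppm) and RPGE3 (1.35), repressors of photosynthetic genes, rose, and AFR (-1.74), the plastid sigma factor SIG5 (-1.52) and AT5G18404 (-1.05) fell. PIF3 (AT1G09530), a phytochrome-interacting factor named after its values were seen, had 441, 374, 380.4 and 379 counts at 0 ppm against 174, 117, 151 and 147 at 100 ppm (log2 fold change 1.42 ± 0.11, adjusted p = 2.78e-09). Of 21 clock genes PRR3 rose, with 915, 819.7, 871 and 830.3 against 261, 291, 350.4 and 325 (log2 fold change 1.49 ± 0.20, adjusted p = 5.93e-06), and the morning genes CCA1 (-1.12, call lost without replicate 1 at 0 ppm) and RVE1 (-1.78) fell. In the phosphate starvation list of 17, SPX3, a sensor of phosphate status, rose (5.17 to 19.5 counts at 0 ppm against 0 to 7.00 at 100 ppm, adjusted p = 0.0101) and PHO1;H1 of the phosphate exporter family fell (-1.25). SPX3 lost its call without replicate 2 at 100 ppm and PHO1;H1 without replicate 1 at 0 ppm.

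**Figure D5:**
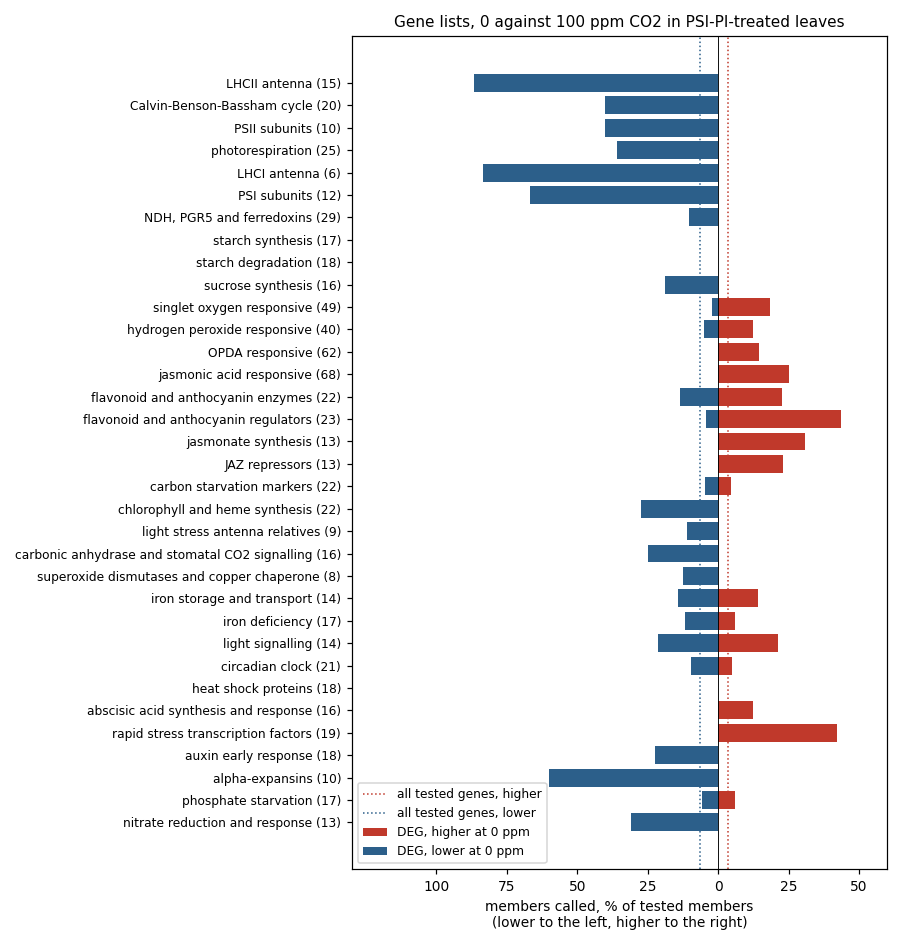
Share of the tested members of 34 gene lists (number tested in brackets) that were DEGs in 0 ppm against 100 ppm CO2 PSI-PI leaves, with genes lower at 0 ppm to the left in blue and higher to the right in red; dotted lines mark the shares of all tested genes, 6.26% lower and 3.56% higher. Antenna, photosystem and expansin lists reach furthest to the left, and flavonoid regulators, rapid stress factors and jasmonate lists to the right.

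Markers of leaf cell types showed what the leaves held. All 5 mesophyll markers fell (RBCS1A, RCA, LHCB1.3, CA1 and GAPA, of which 1 was called under quantile normalization, with RBCS1A and RCA turned, and 2 under the same-sum scaling), and they are photosynthesis genes of the groups above. Their counts summed to 544804 to 1021811 in 0 ppm leaves against 1649857 to 2282818 in 100 ppm leaves. In leaf RNA, fewer mesophyll cells and less of these RNAs per cell cannot be told apart. None of 6 guard cell markers was called (median 0.05, summed counts of 608 to 862 against 562 to 756), and none at adjusted p under 0.05 alone. None of 5 phloem companion cell and 4 epidermis markers was called (medians -0.58 and -0.71, with 3 and 2 of them lower at adjusted p under 0.05 alone). Of 5 markers of dividing cells the D-type cyclin CYCD3;1 fell (log2 fold change -1.54 ± 0.32, adjusted p = 0.000652). The median of these markers was -0.91, and 4 of them were lower at adjusted p under 0.05 alone. None of the 3 tested root markers was called (median -0.73, 2 lower at adjusted p under 0.05 alone). The flower markers AG, AP3 and PI, none of them called, summed to no more than 21.8 counts in any of the 8 leaves.

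The same CO2 contrast in growth light, taken from other leaves, gave 984 higher (4.58%) and 1752 lower genes (8.16%). DEGs of both light treatments with the same direction numbered 1193 (334 up and 859 down), which is 56.6% of the PSI-PI DEGs and 43.6% of the GL DEGs, and 17 had opposite directions. Of the PSI-PI rises 89.7% had a positive fold change in GL, against 52.2% of all tested genes, and of the falls 97.4% had a negative one. Across the 21469 genes the fold changes of both light treatments had r = 0.714 and rho = 0.671, a description over genes that are not independent. The median GL fold change was -2.21 for LHCII, -1.57 for LHCI, -1.52 for PSI subunits, 1.39 for JA-responsive genes and -2.65 for expansins. No gene of these lists passed the interaction test of limma for a difference between the light treatments (adjusted p under 0.05), which 165 genes passed, 0.769% of those tested.

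Among the 165 genes, 103 had a more positive response in PSI-PI and 62 a more negative one. Of them 60 were PSI-PI DEGs, 53 that rose and 7 that fell, and 45 of the 60 had the opposite sign in GL. AT5G57760 (an uncharacterized protein) had 556, 296, 136 and 304 counts in 0 ppm and 40, 18.4, 12.3 and 33.4 in 100 ppm PSI-PI leaves (3.55), whereas its mean in GL was 3.36 ± 4.78 at 0 ppm and 172 ± 66 at 100 ppm (-5.82, interaction 9.37 ± 0.98, adjusted p = 1.33e-06). Its response thus had opposite directions, and it was called in both treatments. CIB1 (AT4G34530), a bHLH partner of cryptochrome, had 546, 702, 534 and 829.9 counts against 42.6, 0, 0 and 28.3 in PSI-PI (6.75). It was at 0 in all GL leaves at 0 ppm, against 35.4 ± 33 at 100 ppm (interaction 10.82 ± 1.99, adjusted p = 0.00346). The kinase gene MKK7 (3.12 in PSI-PI, -1.42 in GL, interaction 4.54 ± 0.82, adjusted p = 0.00274) and AT5G62280 (1.34 and -3.18, interaction 4.52 ± 0.67, adjusted p = 0.000209) differed in the same direction, and the PSI-PI call of AT5G62280 was lost in 4 of the 8 fits that leave out a leaf. On the negative side, AT5G62130 of the Per1-like family had -2.23 in PSI-PI and -0.18 in GL (interaction -2.05 ± 0.39, adjusted p = 0.00471).

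Of the 165 genes, 9 were in the ethylene lists, which were drawn up after the values had been seen. EBF2 averaged 7614 ± 1055 counts in 0 ppm and 1106 ± 165 in 100 ppm leaves under PSI-PI, and 1178 ± 331 and 1406 ± 158 under GL (SD, n = 4 each), an interaction of 3.08 ± 0.23, adjusted p = 3.58e-09. ARL had 2672 ± 233 and 151 ± 18.4 in PSI-PI, and 264 ± 75.2 and 185 ± 41 in GL (interaction 3.66 ± 0.31, adjusted p = 2.19e-08). For ERS2, 132 ± 14.7 and 33.6 ± 12.1 in PSI-PI stood beside 17.5 ± 5.42 and 39.3 ± 9.57 in GL (interaction 3.15 ± 0.37, adjusted p = 1.03e-05), so the receptor rose in one treatment and fell in the other. ERS1 (1.61), ETR2 (3.68), CTR1 (1.08), ARGOS (3.68), EDF3 (1.77) and EIL1 (0.91) also passed the interaction test, and none of the 13 synthesis genes did. The interaction calls of ARGOS and EDF3 were lost in several fits that leave out a leaf, and those of CTR1, EIL1 and EDF3 when the 16 leaves of the test alone were fitted. ORE1 (5.40 in PSI-PI, 2.08 in GL, interaction 3.32 ± 0.61, adjusted p = 0.00346) and NAP (3.38 and 0.79, interaction 2.59 ± 0.46, adjusted p = 0.00207) had more positive responses under PSI-PI. Of the genes of growth hormones named after their values were seen, the brassinosteroid factors BEE3 (2.17 and -1.77) and BES1 (1.00 and -0.83), the kinases WAG1 (2.06 and -1.73) and PID (1.29 and -0.62) that steer auxin transport, and the cytokinin response regulator RR16 (2.87 and -0.62) all had a positive value in PSI-PI and a negative one in GL, and the PSI-PI call of BES1 was lost in 3 of the 8 fits that leave out a leaf. Their interaction had an adjusted p between 4.13e-05 and 0.00123.

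Means at the 2 higher CO2 levels are given here for 5 of the genes described, chosen after their values were seen. LHCB2.3 had means of 1969.5 ± 1379, 17760 ± 5549, 3552 ± 1767 and 3419 ± 1582 at 0, 100, 400 and 1000 ppm under PSI-PI, so the 100 ppm leaves were the ones that stood out. EBF2 had 7614 ± 1055, 1106 ± 165, 1216 ± 104 and 828 ± 183, and the 0 ppm leaves stood out. JAZ1 had 892 ± 616, 93.9 ± 21.8, 161 ± 91.3 and 546 ± 339, with the lowest mean at 100 ppm. FER1 had 37067 ± 5935, 6548 ± 3707, 16733 ± 8362 and 11896 ± 9650, and CA1 had 59075 ± 45038, 216620 ± 48008, 177570 ± 41854 and 110630 ± 53272 (all SD, n = 4 leaves).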

How the data were processed

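RNA of leaves was sequenced in 32 samples, 4 in each of 8 groups, and 2 groups form the main comparison. The authors quantified reads with Salmon on TAIR10 cDNA, summed transcripts to genes with tximport and removed genes with few reads. The deposited signal values are counts divided by the DESeq2 size factors of the authors. As 95% of them were not whole, no count model was run. A deposited table of the authors' own fold changes and p-values was not used.

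Values were tested as log2(value + 1) with limma 3.58.1 in R 4.3.3 (8 group means, 24 residual degrees of freedom, trended variance, two-sided, Benjamini-Hochberg over 21469 genes with a total of at least 10). A fold change is on this log2(value + 1) scale and understates low genes. The interaction is the PSI-PI response minus the GL response, at an adjusted p under 0.05 alone. The script was tested on simulated data. Genes were named as the 12 largest changes in each direction with a mean of at least 10 and no overlap of the 4 and 4 leaves. Up to 4 calls per list and 5 interaction genes in each direction were also named. The comparison, lists and rules were chosen with earlier results of these data known, and several lists are those the study displays. Symbols come from RefSeq (21340 IDs matched). Alternatives changed filter, pseudocount, scaling, samples, variance, block and threshold.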

Additional observations from a re-analysis of the deposited data

Results flagged for a closer look

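Results of 2 kinds stood out. In the first, 1 leaf lay far from the other 3 of its group by Dixon's criterion, which was met in 24 of 410 groups of 4 leaves (5.9%), when chance alone gives about 1 in 20. At 0 ppm CO2 replicate 1 was the leaf concerned in 10 of 12 cases. Its normalized counts were high for BAM3 (64333), BGLU18 (210310), ABI1 (4441), RTE1 (213) and PIF3 (440.8), and low for MKK7 (17.3), CGA1 (277), EIN4 (259), EBF2 (6057) and EIN5 (634). The others at 0 ppm were HEMA1 in replicate 4 (4002) and PDF1 in replicate 2 (1.03). At 100 ppm, replicate 1 stood apart for LHCA2 (192360), CYP71B37 (1.52), ERS1 (479) and ETR2 (51.6), replicate 2 for TPS04 (1.18) and AT5G62130 (509), replicate 3 for MYB90 (3.40), PSAG (49828), WRKY40 (94.6) and SWEET11 (5893), and replicate 4 for MKK7 (1.18) and ACS7 (1.18).

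In the second, the response to 0 against 100 ppm CO2 differed between PSI-PI and GL by the interaction test of limma, with the difference given on the log2 scale. It was positive for CIB1 (10.82), AT5G57760 (9.37), AT3G53250 (5.86), AT2G22880 (4.88), MKK7 (4.54), AT5G62280 (4.52), BEE3 (3.94), WAG1 (3.79), ETR2 (3.68), ARGOS (3.68), ARL (3.66), RR16 (3.49), ORE1 (3.32), ERS2 (3.15), EBF2 (3.08), NAP (2.59), PID (1.91), BES1 (1.84), EDF3 (1.77), ERS1 (1.61), PIF3 (1.47), ABI1 (1.13), CTR1 (1.08) and EIL1 (0.91). It was negative for RVE1 (-2.41), AT5G62130 (-2.05), AT1G24580 (-2.03), CGA1 (-1.74) and AT1G61740 (-1.36). The interaction calls of AT2G22880, RVE1, AT1G24580, CGA1 and AT1G61740 were each lost in some fits that leave out a leaf. CIB1 and AT2G22880 have groups at 0, so the size of their difference depends on the pseudocount.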

How the results depend on the processing

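Leaving out 1 leaf at a time gave 1778 to 2566 DEGs under PSI-PI, 594 to 998 higher and 1175 to 1568 lower, and 2369 to 2849 under GL. It gave 1018 to 1298 shared DEGs, 138 to 207 called list genes and 94 to 213 interaction genes, with 107 without 100 ppm PSI-PI replicate 1 and 94 without 0 ppm GL replicate 3. Without a minimum fold change, PSI-PI gave 7029 genes, 3232 higher and 3797 lower, and GL gave 7803. With only the 8 leaves of the PSI-PI contrast in the fit, 594 genes were higher and 1138 lower, and 17 named genes were no longer called. The interaction count was 72 with the 16 samples alone. Scaling to the same total, chosen after seeing the data, gave 2188 higher and 666 lower genes. RBCS1A (0.048) and RCA (0.168) changed sign under quantile normalization, which left 119 list genes called, against 169. Replicate numbers did not pair the leaves, as deviations of same-numbered leaves had r of -0.095, 0.006, 0.069 and 0.123, and the replicate block gave 765 higher and 1354 lower genes and lost AT1G76790 and AOS. Of 205 named genes 30 were no longer called without 0 ppm replicate 1. Depth limits genes near 0 counts.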

Other observations

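Product families give a view of the DEGs beyond the lists. They were described for 202 families named in the annotation, without a test. The SAUR-like auxin-responsive family, whose members promote cell expansion, had 31 of 69 genes lower and 1 higher at 0 ppm than at 100 ppm under PSI-PI (44.9% lower, median log2 fold change -1.03), and 40 lower under GL (median -2.13). Of all tested genes 6.26% were lower under PSI-PI. Pectin lyase-like proteins, which modify cell walls, had 11 of 45 lower and 1 higher (24.4%), and 15 lower under GL. Glutaredoxins had 6 of 20 lower and none higher (30.0%, median -0.54), and thaumatin-like proteins had 6 of 15 lower and 1 higher (40.0%, median -0.21). In the other direction, O-methyltransferases had 6 of 11 higher and none lower (54.5%, median 1.06), against 3.56% of all tested genes, and 5 higher under GL (median 1.56). Families of this kind include recent duplicates among which reads may be divided.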
